A study of Mus musculus with 12 samples.

Results

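Fat-fed Smad3 knockout mice were compared with wild-type mice on the regular diet, to ask how far the knockout on a high fat diet lies from the state of a wild-type mouse that was never given that diet. The comparison takes 4 of the 12 arrays of the series, chosen by their labels. The 2 arrays titled KO_HFD came from Smad3-/- mice, on mixed strains that include C57BL/6 and NIH Black Swiss, given a high fat diet with 55% fat. The 2 arrays titled WT_RD came from C57BL/6 wild-type mice on the regular diet. Genotype, strain and diet all differ between these groups, so their parts in a difference cannot be told apart here. A pair of further groups is given side by side: WT_HFD (C57BL/6 wild type, the same high fat diet, 2 arrays) and KO_RD (Smad3-/- on the same mixed background, regular diet, 2 arrays). The labels used here give no tissue, age or time on the diet, and for sex only that the NIH Black Swiss part of the background names females. Each array measured total RNA. The letters a and b of a group are not said to be separate animals, and p-values therefore reflect array-to-array spread alone, possibly technical. Differences are in log2 units, KO_HFD minus WT_RD, on which 0 is no difference. A gene is called higher or lower at a limma adjusted p under 0.05 over all 18194 genes, each represented by 1 probe set. The SEs of the called genes named below lay between 0.10 and 0.19.

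White fat cells store triglyceride in 1 large droplet and release leptin and adiponectin. Brown and beige fat cells hold many mitochondria, burn fatty acids and release the energy as heat through the uncoupling protein encoded by Ucp1. Transforming growth factor beta (TGF-beta) signals through receptor kinases that phosphorylate Smad3, which then enters the nucleus with Smad4 and turns on genes of the extracellular matrix and of contractile cells. In obese fat, macrophages accumulate, matrix is laid down and fat cells enlarge.

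The medians of the 4 arrays lay between 6.32 and 6.36. Across genes, the WT_RD arrays correlated with each other at r = 0.994 and the KO_HFD arrays also at 0.994, against 0.971 to 0.973 between the groups. These correlations are over genes and describe the arrays only. Adipoq, which encodes adiponectin, read 13.91 and 14.00 on the WT_RD arrays and 13.92 on both KO_HFD arrays, so the fat-cell marker was high in both groups. The Gapdh control probe sets differed between their 3′ and 5′ ends by 0.118 and 0.144 on the WT_RD arrays and by 0.393 and 0.370 on the KO_HFD arrays. The part of this end difference in the results was not tested. Smad3 itself, by its brightest probe set, read 8.86 and 8.94 on the WT_RD arrays and 9.14 and 9.03 on the KO_HFD arrays (difference 0.19, adjusted p = 0.305). No source used here places this probe set against the deletion, and these values do not check the genotype.

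The fat-fed knockout differed from the regular-diet wild type in 2302 of 18194 genes (12.7%), with 885 higher (4.86%) and 1417 lower (7.79%). A difference of at least 1.5-fold passed for 342 genes (1.88%, limma treat), while for 14653 genes (80.5%) the 95% interval lay within 1.5-fold in either direction. Beyond 2 log2 units, 65 genes were above and 38 below the wild-type level. Both other groups share the WT_RD arrays as their reference, so their counts are set beside these without a test. WT_HFD minus WT_RD gave 1966 called genes (10.8%), and KO_RD minus WT_RD gave 4361 (24.0%), of which 1528 were higher and 2833 lower. With quantile normalization over all 12 arrays the last split became 2438 higher and 2572 lower. The diet difference in the knockout minus that in the wild type, the interaction, was called for 18.8% of genes (12.0% positive, 6.77% negative). The median size of the difference over all genes was 0.14 log2 for KO_HFD, 0.126 for WT_HFD and 0.185 for KO_RD. Leaving out WT_RD array a lowered the KO_HFD counts to 569 higher and 936 lower, leaving out KO_HFD array a lowered the second to 856, and leaving out KO_HFD array b lowered the first to 538.

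**Figure D1:**
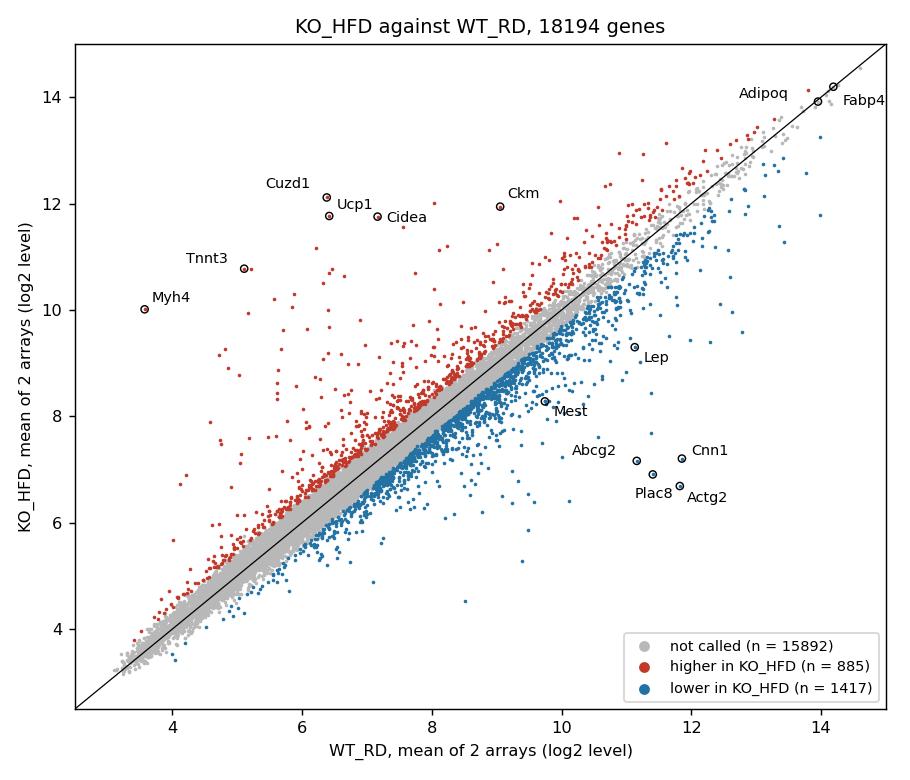
Mean log2 level of each of 18194 genes on the 2 KO_HFD arrays (vertical) against the 2 WT_RD arrays (horizontal), with the line of equal level. Red and blue points are the 885 genes called higher and the 1417 called lower in KO_HFD. Myh4, Tnnt3, Cuzd1, Ucp1 and Cidea lie far above the line, Actg2, Cnn1, Plac8 and Abcg2 far below it, and Adipoq and Fabp4 on it.

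Among called genes, the 10 highest differences belonged to skeletal muscle genes, brown fat genes and Cuzd1. They were Myh4 (6.44), Cuzd1 (5.73), Tnnt3 (5.67), Tnni2 (5.55), Ucp1 (5.35), Atp2a1 (4.96), Myh7 (4.77), Myl2 (4.65), Cidea (4.59) and Mylpf (4.46). The 10 lowest were Actg2, Cnn1, Myh11 and Mylk, which encode contractile and regulatory proteins of smooth muscle, with Plac8, Pcp4, the drug transporter Abcg2, the Wnt inhibitor Sost, the lysophospholipid transporter Mfsd2a and the transcriptional coregulator Cited1. Their differences ran from -5.13 for Actg2 to -3.20 for Mylk. Against the same WT_RD arrays, these 10 genes differed by -5.96 to -3.24 in WT_HFD and by -4.54 to -1.05 in KO_RD. Abcg2 read 11.21 and 11.11 on the WT_RD arrays and 7.14 and 7.18 on the KO_HFD arrays. It read 7.18 and 7.30 in WT_HFD and 7.03 and 6.83 in KO_RD, so the WT_RD arrays stood above the other 6 arrays of the experiment.

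Genes of heat production in brown and beige fat were higher in the fat-fed knockout. Of 16 measured effector genes, 14 were higher and 0 lower (87.5% called, beside 12.7% of all genes). Their median difference was 1.46 against 0.018 over all genes. Ucp1 read 6.40 and 6.44 on the WT_RD arrays and 11.67 and 11.86 on the KO_HFD arrays, which is 40.7-fold higher (adjusted p = 1.87e-23). Cidea, which encodes a lipid droplet protein typical of brown fat, read 7.27 and 7.06 in WT_RD and 11.69 and 11.82 in KO_HFD (24.1-fold). Fabp3, a fatty acid binding protein of oxidative tissues, read 6.03 and 5.65 in WT_RD and 9.93 and 10.18 in KO_HFD (18.6-fold). For all 3 genes, the KO_HFD arrays lay far above the WT_RD arrays with no overlap. Arrays did not overlap, in either direction, for 53.1% of all genes. Cox8b and Cox7a1, subunits of cytochrome c oxidase made in muscle and brown fat, rose by 3.99 and 3.76. Ppara, the nuclear receptor that turns on fatty acid oxidation genes, rose by 1.69. The members not called were Cpn2 (0.36) and Dio2 (0.07), an enzyme that activates thyroid hormone, both picked out after their values were seen.

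The other groups place these levels. Ucp1 read 6.37 and 6.33 in WT_HFD and 12.44 and 12.32 in KO_RD, so both knockout groups were high and both wild-type groups low. Against KO_RD, Ucp1 was lower in KO_HFD by 0.61 (difference -0.61). For Cidea, Cox8b, Cox7a1, Fabp3 and Ppara the difference from KO_RD did not pass (between -0.38 and 0.07, adjusted p from 0.12 to 0.88). Ckmt2, the mitochondrial creatine kinase of muscle and brown fat, followed another order. It read 4.30 and 4.13 in WT_RD, 6.94 and 6.87 in KO_HFD, and 4.46 and 4.25 in KO_RD, and the direct difference between KO_HFD and KO_RD was 2.55. Of the 16 effector genes, 13 were higher in KO_RD minus WT_RD (8.40% of all genes), with a median of 1.58, and 1 was higher in WT_HFD minus WT_RD (4.69% of all genes), with a median of 0.006. Skeletal muscle also makes Cox8b, Cox7a1, Fabp3 and Ckmt2. Of 18 fast muscle genes, 17 were higher in KO_HFD minus WT_RD, with a median of 3.07. In KO_RD minus WT_RD, 11 were higher (8.40% of all genes) and 3 lower (15.6%), with a median of 0.511. The log2 of their summed levels was 14.58 and 14.70 in KO_HFD, 11.66 and 11.59 in KO_RD, and 11.83 and 11.80 in WT_RD. Their part in the effector genes was not tested.

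The regulators of the brown fat programme moved less than its effectors. Of 18 measured, 2 were higher, 1 was lower and 15 were not called, with a median of 0.108. The share called was 16.7%, beside 12.7% over all genes. Ppargc1b, a coactivator of mitochondrial genes, read 8.09 and 8.08 in WT_RD and 9.66 and 9.64 in KO_HFD and rose by 1.57. Irf4, a transcription factor of the cold response in fat, rose by 0.65. The related coactivator Ppargc1a read 6.29 and 6.08 in WT_RD and 6.64 and 6.60 in KO_HFD (difference 0.44, adjusted p = 0.0621). Its arrays did not overlap between the groups, which held for 53.1% of all genes. Prdm16, a determinant of brown fat identity, differed by 0.10 (adjusted p = 0.764), and Zic1, a marker of classical brown fat, by -0.35 (adjusted p = 0.105). Cited1, used as a marker of beige fat, fell by 3.61. It was lower in WT_HFD and KO_RD as well, by 4.22 (difference -4.22) and by 2.29 (difference -2.29).

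**Figure D2:**
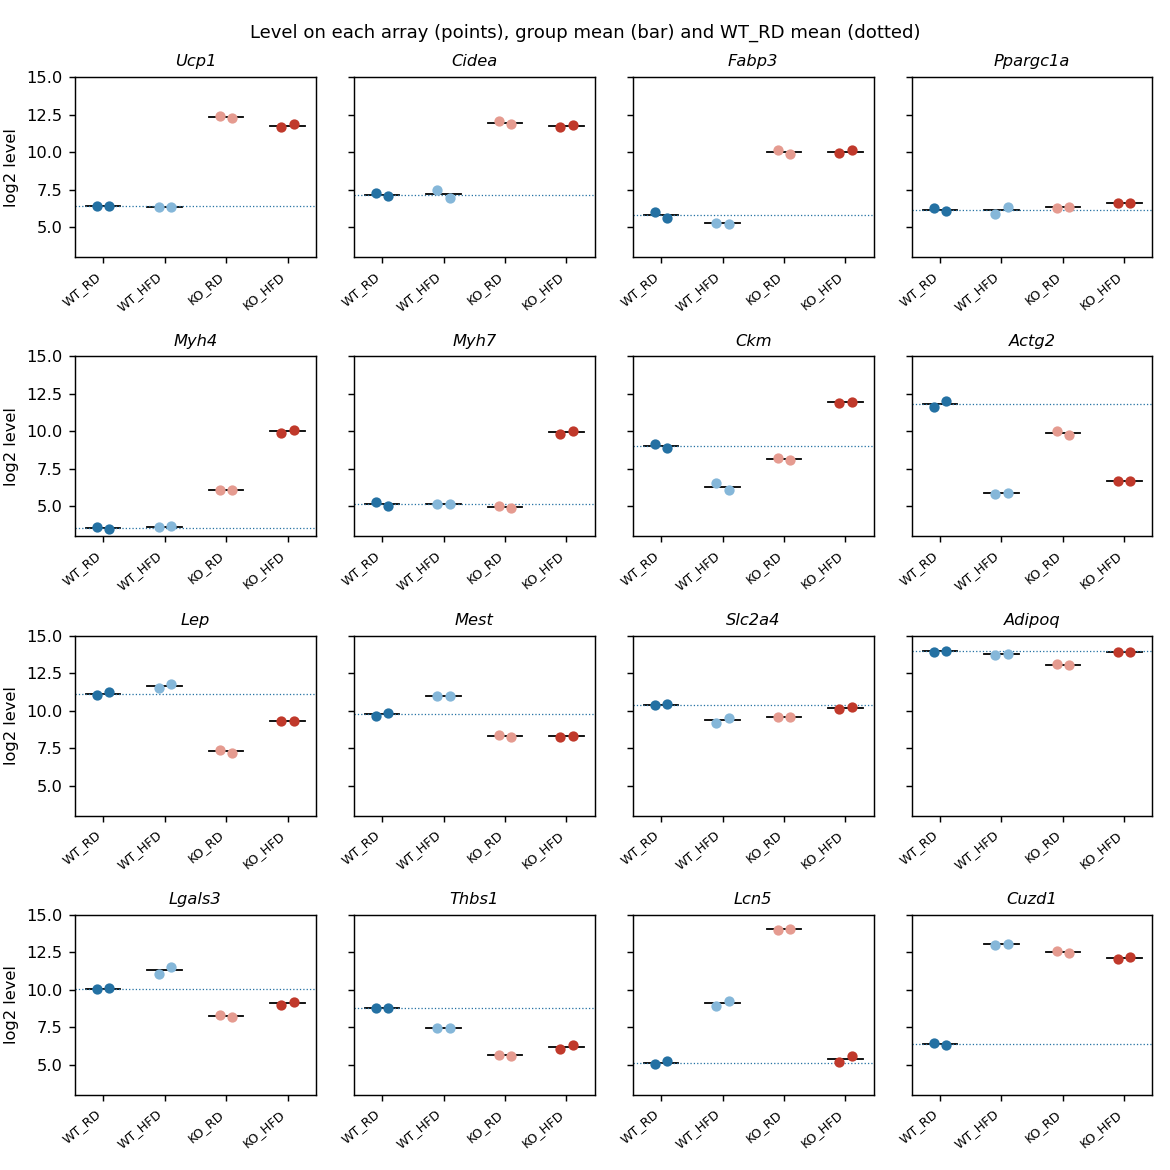
Log2 level of 16 genes on each of the 8 arrays of the diet and genotype experiment, with 2 arrays a group (points), the group mean (bar) and the WT_RD mean (dotted line). Ucp1, Cidea and Fabp3 are high in both knockout groups, Myh4, Myh7 and Ckm are highest in KO_HFD, Lep and Mest are below the WT_RD line in both knockout groups, Adipoq is on that line in KO_HFD, and Lcn5 is high in KO_RD and near the line in KO_HFD.

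Several enzymes exist in a form made in muscle, heart or brown fat and a more general partner form, and 14 of 17 listed pairs were measured on both sides. In KO_HFD minus WT_RD, 11 of the tissue forms were higher, 1 was lower and 2 were not called. Of the partner forms, 2 were higher, 4 lower and 8 not called. Cox8b rose by 3.99 beside 0.22 for Cox8a (adjusted p = 0.177), and Cox7a1 rose by 3.76 beside 0.20 for Cox7a2 (adjusted p = 0.279). Fabp3 rose by 4.21, and Fabp4, the abundant fatty acid binding protein of fat cells, differed by 0.01, reading 14.17 and 14.21 in WT_RD and 14.21 and 14.19 in KO_HFD. Levels of different genes are not compared here, only their differences between the groups.

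In 3 pairs the forms moved in opposite directions. Ckm, the cytosolic creatine kinase of muscle, rose by 2.89, and Ckb, the brain-type form, fell by 2.18. Atp2a1, the calcium pump of fast muscle, rose by 4.96, and Atp2a2, its form in heart and most other cells, fell by 0.73. Acacb, the acetyl-CoA carboxylase whose product restrains fatty acid entry into mitochondria, rose by 1.26, and Acaca, the form of fatty acid synthesis, fell by 0.54. With the mean of all of a gene's probe sets, the calls for Atp2a2 (-0.272, adjusted p = 0.0599) and Acaca (-0.231, adjusted p = 0.162) were lost. By their brightest probe sets, Ckb, Atp2a2 and Acaca were also lower than WT_RD in WT_HFD (-1.21, -0.67 and -1.51). The same held in KO_RD (-1.12, -0.31 and -0.80). Acaca was higher in KO_HFD than in WT_HFD, by 0.97. Pfkm and Pfkl, the muscle and liver forms of phosphofructokinase, both rose, by 1.67 and 0.92. The exception among tissue forms was Tpm2, a tropomyosin shared by skeletal and smooth muscle, which fell by 2.16 beside a fall of 1.29 for Tpm4. The call for Tpm2 was also lost with the mean of its probe sets (-0.274, adjusted p = 0.0781).

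**Figure D3:**
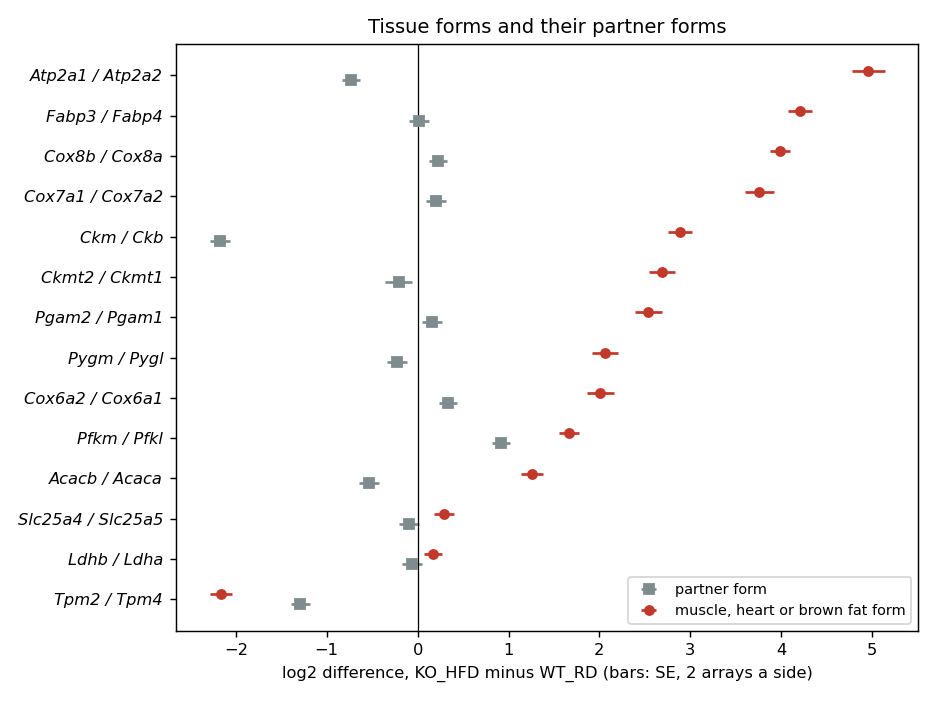
Log2 difference KO_HFD minus WT_RD for the muscle, heart or brown fat form (red circles) and the partner form (grey squares) of 14 enzyme or protein pairs. Bars are the SE of the limma fit with 2 arrays a side. Of the 14 tissue forms, 11 are called higher and lie to the right, while 8 of the partner forms are not called and Ckb, Atp2a2, Acaca and Tpm4 are called lower.

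Genes of mitochondrial fuel use were higher in KO_HFD than in WT_RD. In fatty acid oxidation, 22 of 23 measured genes were higher and 1 was lower (100% called, beside 12.7% of all genes). The list median was 0.962. In KO_RD minus WT_RD, 12 were higher (8.40% of all genes) and 2 lower (15.6%), with a median of 0.369. WT_HFD minus WT_RD had 1 higher (4.69% of all genes) and 5 lower (6.11%), with a median of -0.176. Hadhb, a subunit of the trifunctional enzyme of long-chain oxidation, read 10.75 and 10.74 in WT_RD and 12.28 and 12.44 in KO_HFD (3.07-fold, adjusted p = 9.89e-13). Acadvl, the very long-chain acyl-CoA dehydrogenase, rose by 1.66, Acaa2, the mitochondrial thiolase, by 1.54, and Pdk4, a kinase that turns off pyruvate dehydrogenase, by 1.67. Acadvl and Acaa2 differed from WT_RD by 1.38 and 1.45 in KO_RD, and by -0.33 and -0.02 in WT_HFD. Acaa1b, a peroxisomal thiolase, followed another order and rose by 2.23 in KO_HFD. It read 9.07 and 8.95 in WT_RD, 11.14 and 11.34 in KO_HFD, 10.19 and 10.34 in WT_HFD, and 8.83 and 8.42 in KO_RD, so it was high in both fat-fed groups. The 1 gene below the wild-type level was Cpt1a, the carnitine transferase of fatty acid entry (-0.49), whose call was lost without KO_HFD array a, without WT_RD array b, and with the mean of its probe sets (-0.294, adjusted p = 0.129).

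In the tricarboxylic acid cycle and pyruvate dehydrogenase, 18 of 22 measured genes were higher and 0 lower (81.8% called, beside 12.7% of all genes). The list median was 0.591. Idh2, the mitochondrial isocitrate dehydrogenase that uses NADP, read 9.50 on both WT_RD arrays and 10.35 and 10.47 on the KO_HFD arrays. Idh3b and Idh3g, subunits of the NAD-linked enzyme, rose by 0.93 and 0.91, and Ogdh, of the oxoglutarate dehydrogenase complex, by 0.72. Sucla2, a succinyl-CoA ligase subunit, rose by 1.11, a call lost with the mean of its probe sets (0.292, adjusted p = 0.0721). In WT_HFD minus WT_RD the same list had 17 of 22 members lower (6.11% of all genes), with a median of -0.526. In the direct comparison of KO_HFD with WT_HFD, 22 of 22 were higher (4.74% of all genes), with a median of 1.12.

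Of 53 measured genes of oxidative phosphorylation, 39 were higher and 0 lower (73.6% called, beside 12.7% of all genes). The list median was 0.446, and 0 members passed the test for at least 1.5-fold. Ndufv1, of complex I, read 11.16 and 11.02 in WT_RD, 11.94 and 12.04 in KO_HFD, and 10.46 and 10.61 in WT_HFD. Ndufa1 rose by 0.81. Of complex III, Uqcrc1 rose by 0.73, and Uqcrfs1 and Cyc1 by 0.75 each. Without WT_RD array b the count of higher members was 21, and without KO_HFD array b it was 22. WT_HFD minus WT_RD had 25 members lower (6.11% of all genes) with a median of -0.337. KO_RD minus WT_RD had 10 higher (8.40% of all genes) and 3 lower (15.6%), with a median of 0.052. Against KO_RD directly, 32 of 53 were higher in KO_HFD (11.5% of all genes) and 0 lower (5.82%). Of 21 genes that maintain and read mitochondrial DNA or shape the organelle, 3 were higher (Polrmt, the mitochondrial RNA polymerase, 0.60; Mterf4, 0.49; Phb2, 0.42) and 0 lower. The share called was 14.3%, beside 12.7% over all genes. With the mean of its probe sets the call for Phb2 was lost (0.293, adjusted p = 0.0606). Of the 3 calls, that for Polrmt held under each array left out, and the count of higher members was 1 without WT_RD array a or KO_HFD array b. Skeletal muscle genes were highest on the same KO_HFD arrays: the log2 of the summed levels of 18 fast fibre genes was 14.58 and 14.70 there and 10.99 to 11.83 on the other 6 arrays. Their part in the mitochondrial genes was not tested.

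Skeletal muscle genes were the lists farthest above the wild-type level. Of 18 genes of fast fibres, 17 were higher and 0 lower (94.4% called, beside 12.7% of all genes), with a median of 3.07. Of 23 genes of slow fibres and of both fibre types, 21 were higher and 1 lower (95.7% called), with a median of 2.37. The log2 of the summed levels of the fast list was 11.83 and 11.80 on the WT_RD arrays, 14.58 and 14.70 in KO_HFD, 11.04 and 10.99 in WT_HFD, and 11.66 and 11.59 in KO_RD. That of the slow and shared list was 12.54 and 12.31 in WT_RD, 14.43 and 14.57 in KO_HFD, 11.28 and 11.30 in WT_HFD, and 11.30 and 11.41 in KO_RD. The KO_HFD arrays thus stood above the other 6 arrays for both lists. In bulk RNA, more cells of a type and more RNA per cell cannot be told apart, and whether muscle tissue was in the sample was not tested.

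Muscle genes often carry the sequence CAGCTG, an E-box read by the MyoD family of muscle regulators, near their start. The promoters printed here were picked among those that hold CAGCTG, by smallest p in KO_HFD minus WT_RD. Its presence in each of them is therefore not a result. Each is the 250 bases before the RefSeq start in GRCm38.p6, 5′ to 3′ on the gene's strand, with CAGCTG in capitals. Myh4 (myosin heavy chain of the fastest fibres) lies at chr11:67237562-67237811 on the plus strand, Atp2a1 at chr7:126463074-126463323 on the minus strand, Mylpf (fast regulatory light chain) at chr7:127211358-127211607 on the plus strand, Ckm at chr7:19410844-19411093 on the plus strand, and Cox8b, the brown fat and muscle oxidase subunit, at chr7:140900447-140900696 on the minus strand.
Myh4: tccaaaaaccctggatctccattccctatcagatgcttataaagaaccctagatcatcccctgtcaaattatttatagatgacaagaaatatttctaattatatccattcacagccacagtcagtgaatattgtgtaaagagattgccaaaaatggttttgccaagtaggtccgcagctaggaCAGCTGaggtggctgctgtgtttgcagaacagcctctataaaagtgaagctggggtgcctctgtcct
Atp2a1: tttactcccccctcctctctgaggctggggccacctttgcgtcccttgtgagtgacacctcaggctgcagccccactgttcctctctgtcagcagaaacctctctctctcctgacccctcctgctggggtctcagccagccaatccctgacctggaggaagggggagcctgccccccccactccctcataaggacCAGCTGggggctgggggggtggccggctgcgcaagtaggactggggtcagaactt
Mylpf: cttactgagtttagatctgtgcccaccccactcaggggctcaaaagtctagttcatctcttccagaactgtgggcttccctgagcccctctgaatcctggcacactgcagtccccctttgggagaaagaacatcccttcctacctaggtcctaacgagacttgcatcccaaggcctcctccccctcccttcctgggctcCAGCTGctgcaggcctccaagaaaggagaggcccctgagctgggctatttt
Ckm: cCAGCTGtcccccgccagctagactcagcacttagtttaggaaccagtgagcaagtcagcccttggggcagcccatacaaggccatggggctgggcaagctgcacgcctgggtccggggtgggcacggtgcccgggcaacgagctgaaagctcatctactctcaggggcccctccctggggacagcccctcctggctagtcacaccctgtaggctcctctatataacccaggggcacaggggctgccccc
Cox8b: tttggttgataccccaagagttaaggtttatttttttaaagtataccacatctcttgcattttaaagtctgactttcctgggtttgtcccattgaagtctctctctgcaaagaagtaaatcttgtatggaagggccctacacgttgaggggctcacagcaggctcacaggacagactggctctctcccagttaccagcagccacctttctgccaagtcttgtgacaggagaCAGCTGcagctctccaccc
Counted back from the start, CAGCTG began at base -67 in Myh4, -55 in Atp2a1, -51 in Mylpf, -249 in Ckm and -19 in Cox8b. Of the 41 genes of both muscle lists, 31 had a promoter available, and 14 of these held CAGCTG (45.2%). Of all genes with a promoter, 3979 of 27025 held it (14.7%). A gene counted, for each motif, where any of its promoters held the motif. CAGCTG was found for 3 of 12 brown fat effector genes (25.0%) and for 4 of 43 genes of oxidative phosphorylation (9.30%). Among lists that were lower in KO_HFD, it was found for 4 of 12 smooth muscle genes (33.3%) and for 7 of 22 immediate early and heat shock genes (31.8%). A MEF2 box, read by the MEF2 factors, was found for 6 of the 31 muscle genes (19.4%) and for 3.42% of all genes. It was found for 4 of the 22 immediate early and heat shock genes (18.2%) and 1 of the 12 smooth muscle genes (8.33%). The Myh4 promoter holds one. The CArG box of the serum response factor was found for 4 of the 31 (12.9%), 2 of the 22 (9.09%) and 1.62% of all genes. It was found for 0 of the 12 smooth muscle genes. The Myh4 promoter holds one too. Neither box was found for a brown fat effector or oxidative phosphorylation gene. The motifs TGACGTCA (cyclic AMP response), TATAAA and TCAAGGTCA (estrogen-related receptors) were found for 0, 6 and 0 of the 31, against 1.77%, 14.3% and 0.422% of all genes. For the 12 brown fat effector genes these counts were 1, 2 and 0, and for the 43 of oxidative phosphorylation 3, 2 and 1. For the 12 smooth muscle genes they were 0, 1 and 0, and for the 22 immediate early and heat shock genes 2, 2 and 0. Both strands were searched and overlaps between motifs were allowed. A match is a description of these letters and not of a factor's binding.

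Fast myosin Myh4 read 3.65 and 3.50 on the WT_RD arrays and 9.92 and 10.11 on the KO_HFD arrays, which is 86.8-fold higher (adjusted p = 4.54e-23). The WT_RD readings lie under 5.83, the level of the filter on dim probe sets, so the size of this fold is uncertain. Those of Myh7, Cox7a1 and Ckmt2 lie under it too. Myh4 read 6.12 on both KO_RD arrays and 3.64 and 3.67 in WT_HFD, so KO_RD lay between. The fast troponins Tnnt3 and Tnni2 rose by 5.67 and 5.55, the fast myosin Myh1 by 4.43 and alpha-actinin Actn3 by 4.43. Eno3, the muscle enolase, read 6.74 and 7.06 in WT_RD and 9.81 on both KO_HFD arrays. Ckm read 9.18 and 8.93 in WT_RD and 11.90 and 11.99 in KO_HFD, but 6.55 and 6.08 in WT_HFD and 8.24 and 8.09 in KO_RD. The WT_RD arrays were therefore the second highest group for Ckm.

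Slow myosin Myh7 read 5.29 and 5.04 in WT_RD and 9.86 and 10.02 in KO_HFD (27.4-fold, adjusted p = 2.48e-20). In KO_RD it read 5.03 and 4.88, so the regular-diet knockout was at the wild-type level, and the direct difference between KO_HFD and KO_RD was 4.98. Myl2, the slow regulatory light chain, rose by 4.65, Mb, myoglobin, by 4.32, and the sarcomere proteins Ttn and Tcap by 3.99 each. The lower member was Des, desmin, which smooth muscle also makes (-0.73). It was picked out after its value was seen. The regulators of muscle formation moved less: 3 of 16 measured were higher and 0 lower, with a median of 0.139. The share called was 18.8%, beside 12.7% over all genes. Myf6, a factor of mature fibres, rose by 1.02 and Mef2c by 0.73. Myog, the differentiation factor myogenin, rose by 0.65, a call lost without KO_HFD array a and without WT_RD array b. Myod1 differed by 0.31 (adjusted p = 0.145).

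Genes of white fat-cell identity were mostly not called or lower in KO_HFD. Of 21 white adipocyte and adipokine genes, 1 was higher and 7 were lower (38.1% called, beside 12.7% of all genes). For 13 the 95% interval lay within 1.5-fold, which held for 80.5% of all genes. The median was -0.085, beside -0.837 in KO_RD, where 15 members were lower (15.6% of all genes). Lep, which encodes leptin, read 11.01 and 11.24 in WT_RD and 9.30 on both KO_HFD arrays, a 3.55-fold lower level (adjusted p = 6.57e-13). It read 11.53 and 11.74 in WT_HFD and 7.39 and 7.17 in KO_RD. The fat-fed knockout thus lay between the regular-diet knockout and the wild type, and its direct difference from KO_RD was 2.02. Npr3, the clearance receptor of natriuretic peptides, fell by 1.59 and Wfdc21 by 1.49. Cav1, the coat protein of caveolae, fell by 0.59.

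Slc2a4, the insulin-responsive glucose transporter GLUT4, read 10.38 and 10.41 in WT_RD and 10.13 and 10.27 in KO_HFD (difference -0.20, adjusted p = 0.293). WT_HFD was lower than WT_RD by 1.04 (difference -1.04), and the fat-fed knockout was above the fat-fed wild type by 0.85 (adjusted p = 1.17e-06). Retn, which encodes resistin, differed by -0.11 in KO_HFD and by -0.65 in WT_HFD, and the direct difference between these groups was 0.55 (adjusted p = 0.0022). Adipoq differed from WT_RD by -0.04 in KO_HFD and by -0.89 in KO_RD.

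Of 11 genes linked to fat-cell enlargement or imprinting, 5 were lower and 1 was higher (54.5% called, beside 12.7% of all genes). The list median was -0.225. Mest, whose level rises as fat expands, read 9.65 and 9.83 in WT_RD, 8.24 and 8.32 in KO_HFD, and 10.94 and 10.95 in WT_HFD. It was therefore below the wild-type level in KO_HFD (2.76-fold) and above it in WT_HFD, and the direct difference was -2.67. Sfrp5, a secreted Wnt inhibitor, differed by -0.69 in KO_HFD and 0.54 in WT_HFD. Nnat, neuronatin, fell by 1.61, and Cav2, a partner of caveolin, by 0.70. Peg3, an imprinted transcription factor, rose by 0.62, beside 0.66 in WT_HFD.

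Among 13 adipogenic transcription factors, 2 were higher and 4 lower, the latter 2 without KO_HFD array a. On all arrays, 46.2% of these factors were called, beside 12.7% of all genes. Pparg, the master regulator of fat cells, read 10.62 and 10.46 in WT_RD and 9.74 and 9.80 in KO_HFD, a fall of 0.77. It read 9.42 and 9.78 in WT_HFD and 8.83 and 8.60 in KO_RD. Cebpd, an early factor of fat-cell formation, fell by 1.70, beside -1.65 in WT_HFD and -2.28 in KO_RD. Ebf1 fell by 0.59, a call lost without KO_HFD array a and without WT_RD array a. Srebf1, the regulator of fatty acid synthesis, rose by 0.56. Stat5a rose by 0.52, a call lost without WT_RD array b.

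Of 13 measured lipid droplet and lipolysis genes, 2 were higher and 1 lower (23.1% called, beside 12.7% of all genes). For 10 the interval lay within 1.5-fold, which held for 80.5% of all genes. The list median was 0.014, beside -0.713 in KO_RD. Plin5, a droplet protein that ties droplets to mitochondria, read 7.67 and 7.42 in WT_RD and 8.96 and 9.06 in KO_HFD (2.76-fold). G0s2, an inhibitor of the lipase ATGL, rose by 1.96 in KO_HFD beside 2.00 in WT_HFD. Abhd5, the activator of that lipase, fell by 0.50, a call lost without KO_HFD array a and without WT_RD array a. With the mean of its probe sets Abhd5 differed by -0.17 (adjusted p = 0.357). Bscl2, seipin, read 12.36 and 12.38 in WT_RD and 12.54 and 12.57 in KO_HFD, and 11.55 and 11.22 in KO_RD.

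Enzymes of fatty acid and triglyceride synthesis divided into higher and lower members. Of 23 measured, 5 were higher (3 with probe sets averaged) and 9 lower, with a median of -0.256. By the main fit 60.9% were called, beside 12.7% of all genes. Acly, which makes cytosolic acetyl-CoA from citrate, read 12.75 and 12.89 in WT_RD, 11.77 and 11.85 in KO_HFD, and 11.24 and 11.29 in WT_HFD. It was lower in KO_HFD by 1.01 (difference -1.01), and it was higher there than in WT_HFD by 0.55. Acss2, which makes acetyl-CoA from acetate, fell by 1.00, beside -1.04 in WT_HFD and -1.87 in KO_RD. Fads2, a desaturase of polyunsaturated fatty acids, fell by 1.35. Agpat2, an acyltransferase of triglyceride assembly, rose by 0.79. Fasn, the fatty acid synthase, read 14.15 and 14.16 in WT_RD and 13.89 and 13.87 in KO_HFD (difference -0.28, adjusted p = 0.0675). In WT_HFD it was lower by 0.89 (difference -0.89), and the direct difference between the fat-fed groups was 0.61.

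Of 17 cholesterol synthesis and SREBP2 target genes, 3 were higher and 4 lower (41.2% called, beside 12.7% of all genes). Insig1, a sterol sensor that holds SREBP in the endoplasmic reticulum, rose by 0.88. Hmgcs1, an early enzyme of the pathway, rose by 0.58, a call lost without WT_RD array a. Idi1, Fdps and Sc5d, later enzymes, fell by 0.84, 0.85 and 0.50, and the calls for Fdps and Sc5d were lost with the mean of their probe sets (-0.285 and -0.206, adjusted p = 0.173 and 0.141). Of 15 genes of insulin signalling and glucose uptake, 1 was higher and 4 were lower, with 2 lower without KO_HFD array a. On all arrays, 33.3% of this insulin list was called, beside 12.7% of all genes. Pik3r1, a regulatory subunit of PI3-kinase, read 9.91 and 9.63 in WT_RD and 8.79 and 9.01 in KO_HFD. Tbc1d4, which holds GLUT4 vesicles inside the cell, read 7.79 on both WT_RD arrays and 6.96 and 6.97 on the KO_HFD arrays. Both were lower in WT_HFD and KO_RD by a like amount, between -1.10 and -0.84. Akt2, the insulin-responsive kinase, rose by 0.50, a call lost without WT_RD array b.

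Macrophage genes were either not called or lower in the fat-fed knockout. Of 35 measured, 17 were lower and 0 higher (48.6% called, beside 12.7% of all genes), with a median of -0.372. In WT_HFD minus WT_RD, 5 were higher (4.69% of all genes) and 5 lower (6.11%). In the direct comparison of KO_HFD with WT_HFD, 17 were lower (6.05% of all genes) and 0 higher. Lgals3, galectin-3, read 10.05 and 10.10 in WT_RD, 8.98 and 9.19 in KO_HFD, 11.08 and 11.52 in WT_HFD, and 8.28 and 8.21 in KO_RD. The fat-fed knockout lay on the other side of the wild-type level from the fat-fed wild type, with a direct difference of -2.21. The resident macrophage receptor Lyve1, which lymphatic vessels also make, fell by 1.44, the complement gene C1qa by 0.85, Retnla by 0.99 and the endotoxin receptor Cd14 by 0.88. Cd14 was lower than WT_RD in WT_HFD as well (-0.83), and its direct difference between the fat-fed groups did not pass (-0.06). Adgre1, which encodes F4/80, read 7.22 and 7.33 in WT_RD and 7.36 and 7.41 in KO_HFD (difference 0.11, adjusted p = 0.653). The log2 of the summed levels of the list was 13.89 and 13.85 in WT_RD and 13.21 and 13.34 in KO_HFD.

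Of 24 genes of the lysosome and its proton pump, 10 were lower and 1 higher (45.8% called, beside 12.7% of all genes). The list median was -0.268. Ctss, a cathepsin of antigen-presenting cells, read 7.90 and 7.75 in WT_RD, 7.22 and 7.26 in KO_HFD, and 8.74 and 8.76 in WT_HFD. Ctsl fell by 0.75 and the pump subunit Atp6v0d1 by 0.66. Against WT_HFD directly, 14 of 24 were lower (6.05% of all genes) and 0 higher. Of 29 cytokine, chemokine and acute phase genes, 7 were lower and 1 higher (27.6% called, beside 12.7% of all genes). Ccl6 fell by 1.25, the macrophage growth factor Csf1 by 0.98 and the acute phase gene Orm1 by 0.97. Il1r1, the interleukin-1 receptor, read 9.35 and 9.16 in WT_RD and 8.06 and 7.45 in KO_HFD. Cxcl12, which holds stem and immune cells in tissue, read 7.93 and 7.85 in WT_RD and 8.97 and 9.11 in KO_HFD and rose by 1.15.

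Few lymphocyte markers were called: 5.56% of T and NK cell genes and 7.14% of B and plasma cell genes, beside 12.7% of all genes. An interval within 1.5-fold was found for 80.5% of all genes. Of 18 T and NK cell genes, 1 was higher (Cd3g, 0.49) and 16 had an interval within 1.5-fold, and the call for Cd3g was lost without either KO_HFD array and without WT_RD array b. Of 14 B and plasma cell genes, 1 was lower (Sdc1, which epithelia also make, -0.52), a call lost without KO_HFD array a and without WT_RD array a. With the mean of its probe sets Sdc1 differed by -0.148 (adjusted p = 0.409). Of 24 interferon response genes, 1 was higher, Cxcl9 (0.62), and 2 were lower, Ifi35 (-0.49) and Bst2 (-0.45). The share called was 12.5%, beside 12.7% over all genes. The call for Bst2 was lost without either WT_RD array and without KO_HFD array b (and under 3 other alternatives, adjusted p from 0.0591 to 0.0658), and that for Ifi35 without KO_HFD array a.

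Extracellular matrix genes were either not called or lower in the fat-fed knockout. Of 39 measured, 19 were lower and 0 higher (48.7% called, beside 12.7% of all genes), with a median of -0.246. The chains of basement membrane collagen, Col4a1 and Col4a2, fell by 1.53 and 1.13, and Col4a1 read 11.78 and 11.75 in WT_RD and 10.16 and 10.31 in KO_HFD. Thbs1, thrombospondin-1, an activator of latent TGF-beta, read 8.77 and 8.79 in WT_RD and 6.07 and 6.34 in KO_HFD (5.95-fold lower). Fn1, fibronectin, fell by 0.81, and Col15a1 by 1.04. Col1a1, the main fibrillar collagen, read 7.97 and 8.08 in WT_RD and 7.94 and 8.05 in KO_HFD (difference -0.03, adjusted p = 0.928). WT_HFD minus WT_RD had 17 members lower (6.11% of all genes) and KO_RD minus WT_RD had 26 (15.6% of all genes). Against KO_RD directly, 24 of the 39 were higher in KO_HFD (11.5% of all genes) and 1 lower (5.82%).

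Of 30 ligands, receptors, Smads and inhibitors of the TGF-beta superfamily, 8 were lower and 0 higher, and this count fell to between 3 and 5 when any of the 4 arrays was left out. On all arrays, 26.7% of the list was called, beside 12.7% of all genes. Among ligands, Inhbb, a subunit of activin B, read 8.37 and 8.70 in WT_RD and 7.26 and 7.42 in KO_HFD and fell by 1.20. Tgfb1 differed by -0.40 and Tgfb3 by -0.43. The call for Tgfb1 was lost without each of the 4 arrays and with the mean of its probe sets (-0.209, adjusted p = 0.17), and that for Tgfb3 without 3 of them (KO_HFD array b and either WT_RD array). Among receptors, Tgfbr3, betaglycan, fell by 0.79. Among Smads, Smad1, which carries BMP signals, read 7.87 and 7.92 in WT_RD and 7.28 and 7.26 in KO_HFD and fell by 0.62. Smad4, the shared partner, fell by 0.44, a call lost without KO_HFD array a and without WT_RD array a.

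Of 28 genes listed as induced by TGF-beta, 15 were lower and 2 higher (60.7% called, beside 12.7% of all genes). The list median was -0.384. Ccn2, connective tissue growth factor, read 9.66 and 9.83 in WT_RD and 8.17 and 8.41 in KO_HFD (2.74-fold lower). Tagln, transgelin, read 12.50 and 12.39 in WT_RD and 9.94 and 10.29 in KO_HFD (5.01-fold lower). Acta2, smooth muscle actin, fell by 1.77. WT_HFD, which carries wild-type Smad3, had 15 members lower (6.11% of all genes) and 3 higher (4.69%) against the same arrays, with a median of -0.351. KO_RD had 19 lower (15.6% of all genes) and 3 higher (8.40%), with a median of -0.623. In KO_HFD minus WT_HFD, 7 were higher (4.74% of all genes) and 5 lower (6.05%).

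Several of these genes are contractile genes of smooth muscle, and the smooth muscle and pericyte list was the list with the lowest median, -1.12. Of its 17 measured members, 12 were lower and 0 higher (70.6% called, beside 12.7% of all genes). Actg2, the enteric and visceral actin, read 11.60 and 12.05 in WT_RD, 6.70 and 6.68 in KO_HFD, 5.81 and 5.92 in WT_HFD, and 10.05 and 9.78 in KO_RD. Myh11, smooth muscle myosin, read 11.48 and 11.28 in WT_RD, 7.67 and 7.71 in KO_HFD, 6.40 and 6.69 in WT_HFD, and 7.60 and 7.09 in KO_RD. The log2 of the summed levels was 15.25 and 15.34 in WT_RD, against 12.85 to 13.38 on the other 6 arrays. The WT_RD arrays stood above the others for this list, and the part of smooth muscle content in the TGF-beta and matrix genes was not tested. Against WT_HFD, 7 of the 17 were higher in KO_HFD (4.74% of all genes) and 1 lower (6.05%).

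Immediate early and heat shock genes were also highest on the WT_RD arrays. Of 27 measured, 19 were lower in KO_HFD and 0 higher (70.4% called, beside 12.7% of all genes). The list median was -0.714, beside -0.553 in WT_HFD and -0.634 in KO_RD. Egr1, an early response transcription factor, read 9.20 and 9.28 in WT_RD, 6.97 and 6.96 in KO_HFD, 7.49 and 7.30 in WT_HFD, and 7.41 and 7.45 in KO_RD. Dusp1, a phosphatase of stress kinases, fell by 1.96, Fosl2 by 1.80 and the chaperone Dnajb1 by 1.32. The log2 of the summed levels was 14.38 and 14.36 in WT_RD and 13.56 and 13.62 in KO_HFD.

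Genes of other tissues also separated the groups. Of 21 epididymis and testis genes, 8 were higher in KO_HFD and 0 lower (38.1% called, beside 12.7% of all genes). The list median was 0.299, beside 1.89 in WT_HFD and 3.25 in KO_RD. Cuzd1 read 6.47 and 6.28 in WT_RD, 12.07 and 12.16 in KO_HFD, 12.98 and 13.08 in WT_HFD, and 12.56 and 12.43 in KO_RD, so the WT_RD arrays stood apart for it. Adam7, a membrane protein of the epididymis, rose by 3.59, Defb2 by 1.48, and the sperm genes Smcp and Prm2 by 1.03 and 1.00. Lcn5, an epididymal lipocalin, read 5.05 and 5.22 in WT_RD, 5.21 and 5.55 in KO_HFD, 8.93 and 9.27 in WT_HFD, and 14.01 and 14.04 in KO_RD. Gpx5, the epididymal glutathione peroxidase, differed by 0.11 in KO_HFD and by 7.00 in KO_RD. The log2 of the summed levels of the list was 10.54 and 10.52 in WT_RD and 12.67 and 12.81 in KO_HFD. How much epididymal tissue each sample held was not tested.

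The remaining cell types moved less as lists. Over all genes, 4.86% were higher and 7.79% lower. Of 21 endothelial genes 5 were lower, among them Sox17 (-0.90), Cldn5 (-0.66) and Flt1 (-0.63), with a list median of 0.085. Of 21 fibroblast and adipocyte precursor genes 4 were lower, led by Mfap5 (-0.72) and Igfbp6 (-0.59), and 2 were lower without WT_RD array a or without KO_HFD array a. Of 14 mesothelial genes 4 were lower, and Krt19 read 9.65 and 9.50 in WT_RD and 6.24 and 6.54 in KO_HFD (9.11-fold lower). Without WT_RD array b or KO_HFD array a the mesothelial count was 2. Of 22 keratinocyte and mammary genes 2 were higher (Ltf, lactoferrin, 1.21; Cldn3, 0.62) and 1 lower (Dsp, desmoplakin, -0.84). Of 13 hepatocyte genes 2 were higher (Fga, 0.86, and Cyp2e1, 0.34) and 1 lower, Serpina1b (-1.68). The call for Fga was lost without KO_HFD array a and that for Cyp2e1 without each of the 4 arrays and under 3 other alternatives (adjusted p from 0.0541 to 0.0732), and Alb differed by -0.35 (adjusted p = 0.0926). Of 13 Schwann cell genes Pmp22 (-0.60) and Scn7a (-0.66) were lower. Of 5 red cell genes Alas2, a heme synthesis enzyme, was higher (0.50), a call lost without WT_RD array a. Of 6 sex-linked genes Kdm5d was higher (0.53), lost without either WT_RD array, without KO_HFD array a, and with the mean of its probe sets (0.095, adjusted p = 0.721). Xist differed by 0.12 (adjusted p = 0.661).

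Over all genes, 4.86% were higher, 7.79% were lower and 80.5% had an interval within 1.5-fold. Among processes of cell stress and growth, 3 of 27 unfolded protein response genes were higher and 5 lower. Leaving out any of the 4 arrays left 0 or 1 higher and 1 to 3 lower. Xbp1, its transcription factor, read 13.10 and 13.12 in WT_RD and 12.12 and 12.18 in KO_HFD and fell by 0.97, beside -0.97 in WT_HFD and -1.12 in KO_RD. Hspa5, the chaperone BiP, read 10.57 and 10.60 in WT_RD, 10.14 and 10.33 in KO_HFD, 11.27 and 11.36 in WT_HFD, and 11.55 and 11.50 in KO_RD. The fat-fed knockout was thus below both other groups for Hspa5, by -1.08 and -1.29, and its call against WT_RD (-0.35) was lost without either WT_RD array and without KO_HFD array a. It was also lost with the mean of its probe sets (-0.216, adjusted p = 0.166) and with no intensity trend (adjusted p = 0.0553). Of 24 glutathione and peroxide genes 4 were higher and 3 lower. Gpx3, the secreted glutathione peroxidase, read 11.60 on both WT_RD arrays and 13.13 and 13.14 in KO_HFD and rose by 1.53, beside 1.85 in WT_HFD and 1.30 in KO_RD. The higher count was 1 without KO_HFD array b and 2 without either WT_RD array. Of 24 cell cycle genes, 1 was lower (Pcna, -0.39, lost without each of the 4 arrays and under 4 other alternatives, adjusted p from 0.0669 to 0.138) and 22 had an interval within 1.5-fold.

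Of 18 clock genes, 1 was higher and 2 lower. The share called was 16.7%, beside 12.7% over all genes. The calls for Per3 (0.35) and Cry2 (-0.34) were lost without each of the 4 arrays. They were also lost under 5 and 4 other alternatives, with adjusted p from 0.0542 to 0.189 for Per3 and from 0.0528 to 0.113 for Cry2. Nfil3, a repressor with a daily rhythm, fell by 0.66. Dbp, a clock output gene, read 10.16 and 10.10 in WT_RD and 10.06 and 10.31 in KO_HFD (difference 0.06, adjusted p = 0.844).

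**Figure D4:**
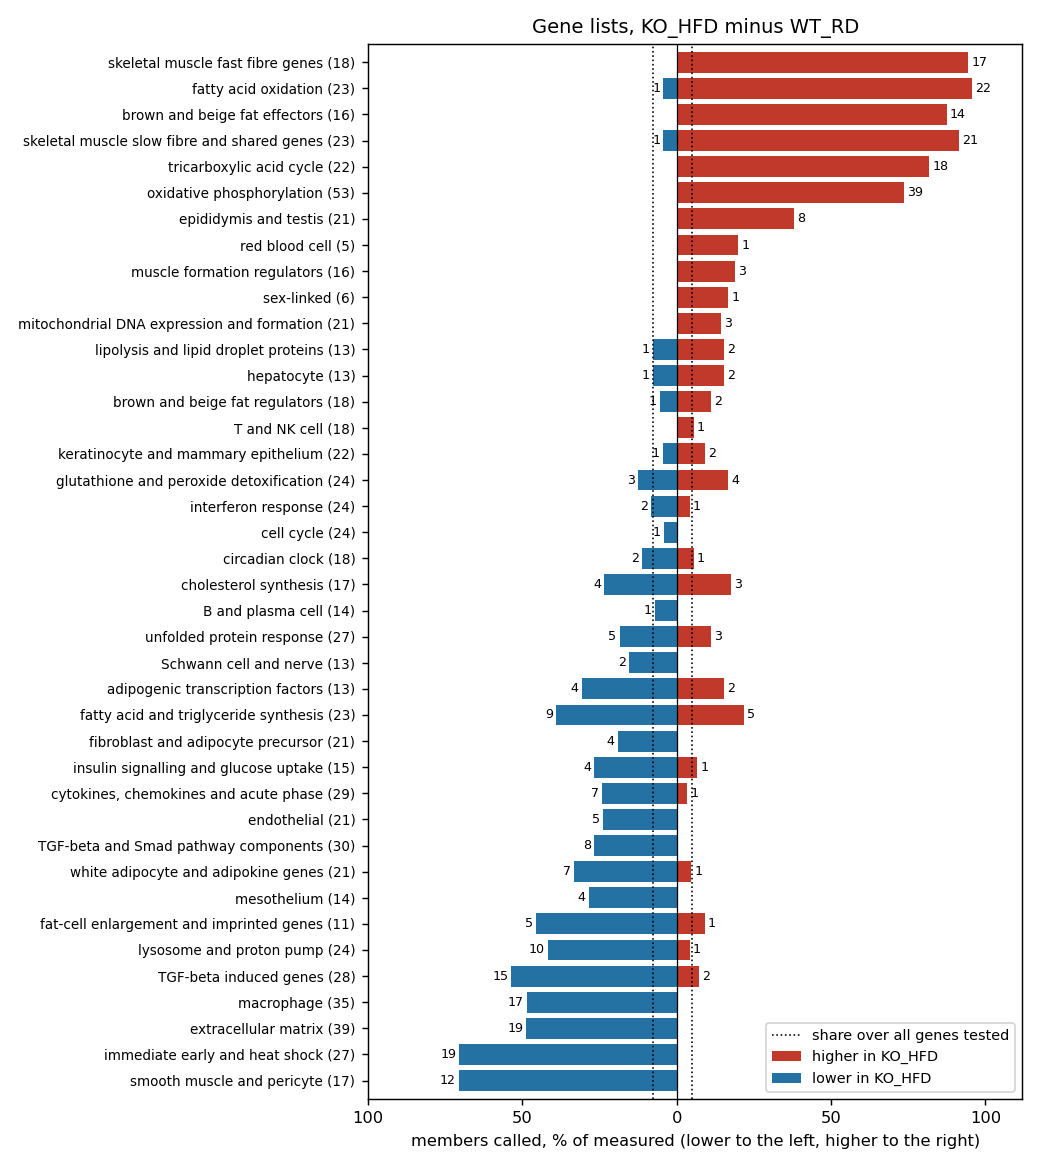
Share of the measured members of each of 40 gene lists called higher (red, to the right) or lower (blue, to the left) in KO_HFD minus WT_RD, with the number of members called beside each bar and the number measured after each name. Dotted lines mark the shares over all genes, 4.86% higher and 7.79% lower. The muscle, fatty acid oxidation and brown fat effector lists lie far to the right and the smooth muscle, immediate early, matrix and macrophage lists far to the left.

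**Figure D5:**
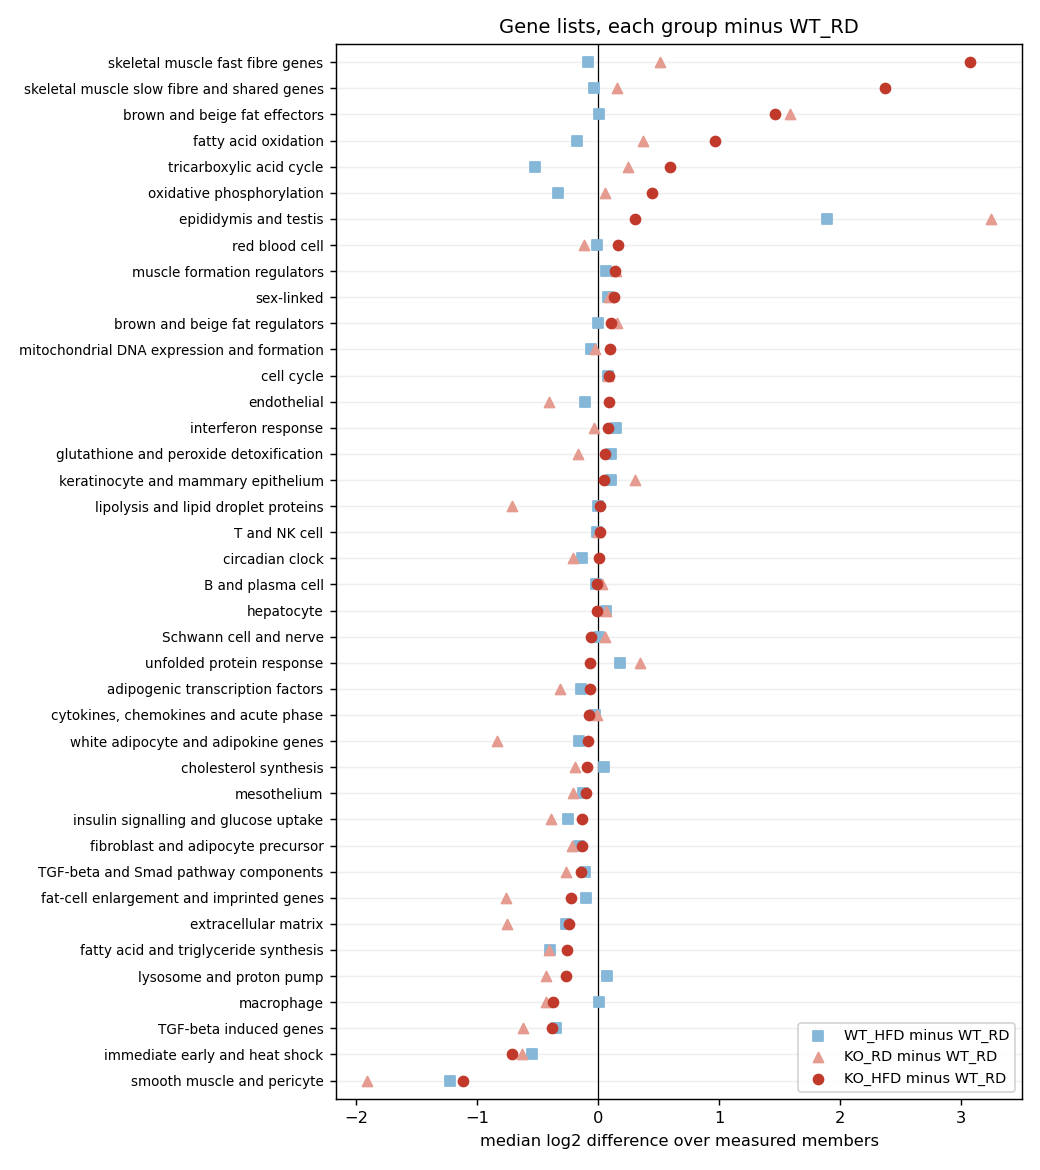
Median log2 difference from WT_RD of the same lists in WT_HFD (squares), KO_RD (triangles) and KO_HFD (circles). All 3 share the WT_RD arrays. KO_HFD is above WT_RD for fuel oxidation while WT_HFD is below (0.591 and -0.526 for the tricarboxylic acid cycle), is near WT_RD for white adipocyte genes (-0.085) where KO_RD is at -0.837, and is at 3.07 for fast muscle genes.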

How the data were processed

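Total RNA from mice was hybridised to 12 Affymetrix arrays, 1 a sample. The values are log2 signals deposited by the authors, computed by RMA and Partek per the submitters' processing notes; versions were not stated. Sample titles gave the groups. Of 45101 probe sets, 34958 named 1 gene, and for each of 18194 genes the brightest of these over the 12 arrays was used (9012 genes had several).

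Linear models of 6 group means were fitted to the 12 arrays (limma 3.58.1, R 4.3.3, eBayes with an intensity trend, 6 residual and 20.4 prior degrees of freedom). Two-sided p-values were adjusted by Benjamini-Hochberg across all genes, with 0.05 as the threshold. Fold changes are powers of 2 of log2 differences. The arrays of the diet and genotype experiment and those of the antibody experiment differ in median and spread, so no level is compared between the experiments. The number of arrays limits the precision. On simulated data for KO_HFD minus WT_RD over 18194 genes, 67, 67 and 66 genes were changed by 0.5, 1 and 2 log2. Noise was drawn independently for each gene and array. Of the changed genes, 26.9%, 98.5% and 100% were called in the right direction, and 8 of 17994 unchanged genes were called. The real comparison called a larger share of genes (12.7%) and its arrays may carry shared errors, so its rates may differ.

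The comparison, the 40 gene lists, 17 pairs and named genes were chosen with earlier results of these data known. Named genes were preset genes, the 10 highest and 10 lowest called genes with no overlap between arrays (leaving out unnamed transcripts and antigen receptor genes), up to 5 members of each list by smallest unadjusted p, and the pairs. Of 31 preset genes measured, 7 were higher and 11 lower. The 6 promoter motifs and the promoters printed were chosen after the values were seen. The promoters printed were taken only from those that hold CAGCTG. Alternatives varied the eBayes prior (no trend, robust), a filter on dim probe sets (40th percentile), averaging of probe sets, quantile normalization over 12 arrays, centring, the arrays fitted, a block for the replicate letter, and each array left out. A group left with 1 array took its spread from the other groups.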

Additional observations from a re-analysis of the deposited data

Results flagged for a closer look

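For 21 of the preset genes, the diet difference was unlike between the knockout and wild-type groups, which also differ in strain. The preset genes were chosen with earlier results known. The part of muscle or epididymal tissue in these values was not tested. The limma interaction term is the diet difference in the knockout minus that in wild type, in log2 units. At adjusted p under 0.05 over all genes, it was called for 18.8% of them. It was positive for Ckm (6.51), Myh7 (5.0), Tagln (4.61), Myh4 (3.81), Pparg (1.99), Ccn2 (1.95), Fn1 (1.89), Retn (1.82), Slc2a4 (1.68), Npr3 (1.63), Lep (1.51), Dbp (1.25), Adipoq (1.05), Fasn (0.86), Nnat (0.72) and Fabp3 (0.63). It was negative for Lcn5 (-12.61), Gpx5 (-6.95), Hspa5 (-2.02), Mest (-1.21) and Ucp1 (-0.54). For Slc2a4, Adipoq, Retn, Fasn and Dbp, the level in the fat-fed knockout differed from the regular-diet wild type by no more than 0.28 in either direction. For Lcn5 and Gpx5 the level in the fat-fed knockout was also near that of the regular-diet wild type, with the regular-diet knockout far above both. With 2 arrays a group, no group was large enough to test for a single array far from the others.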

How the results depend on the processing

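None of the 241 named genes changed sign while called, under any alternative run. The counts of called genes moved by over 1.5 times in these cases. Genes higher in KO_HFD numbered 569 without WT_RD array a and 538 without KO_HFD array b, in a range of 538 to 926 over the arrays left out. Genes lower numbered 936 without WT_RD array a and 856 without KO_HFD array a, in a range of 856 to 1518. For WT_HFD minus WT_RD, lower genes numbered 720 without WT_RD array a and 691 without WT_HFD array a, in a range of 691 to 1208. For KO_RD minus WT_RD, higher genes numbered 2438 with quantile normalization over 12 arrays. The cause was not tested. Of the 179 named genes called, 142 kept the call under each array left out and 37 lost it at least once. Averaging over probe sets ended 24 named calls, eBayes with no trend 10, and each other alternative that left out no single array 7 or fewer. The filter on dim probe sets, under which some named genes were not tested, ended 0 of the calls that were. Higher lipolysis and droplet genes numbered 4 with quantile normalization, and higher brown fat regulators 4 with the arrays of the 2 groups alone. Correlations over genes of b minus a between groups ran from -0.161 to 0.169. They cannot show whether the letters a and b pair the arrays, which the labels do not say. With the replicate block, 884 genes were higher and 1409 lower, and 2 named calls were lost. All genes shifted by a median of 0.018 log2, and centring the arrays on their medians ended 3 named calls. Dim genes carry little signal over background, and no detection calls were used.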
